A study of Dugesia japonica with 4 samples.

Results

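The subject is a set of 25 planarian genes chosen for more RNA at the ends than in the middle of the rim of tissue sections, out of 38792 features measured. They come from Visium spatial transcriptomes of wild-type Dugesia japonica, a freshwater flatworm, in which frozen slices 8 µm thick of the head blastema at a time labelled 5 dpa were laid on arrays of barcoded spots. The 4 libraries (wells A to D) form 1 group with 1 genotype and no treatment, and the labels do not say whether they come from different animals. A spot takes in a patch of tissue with more than 1 cell and often more than 1 cell type, and its counts are unique molecular identifiers (UMIs), 1 for each captured RNA molecule. Spots behave as small bulk samples, so fewer cells of a type and less RNA per cell cannot be told apart.

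Planarians rebuild a lost head from a blastema, the mass of new tissue that stem cell progeny form at the wound. The body is flattened, and its margin, where the upper and the lower surface meet, is known in planarians as a line of special cell types, such as adhesive gland cells and cells of the dorsoventral boundary, which have to be set up again in regenerating tissue. The slices were cut in order from anterior to posterior. The labels do not say which body axis runs along the array rows, so the ends of the sections are called ends here and not sides of the animal. The feature lists hold bare identifiers (DJKW numbers) with no symbol, so no role is given to any of the genes, no marker of a cell type could be looked up, and no sequence is shown.

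The members were chosen from measured values. A section is a group of at least 5 connected spots, a rim spot (edge spot) has at least 1 of its 6 neighbouring positions off the tissue, and an interior spot has tissue on all 6 sides. Each spot has a relative row position, from -1 at the lowest row of its section to 1 at the highest. The ends are the spots with a relative row position over 0.5 in size, and the rest is the middle. For each well, counts were summed by zone and scaled to library totals as CPM, and the log2 ratio of CPM + 5 was taken. Of 28999 DJKW features, 4040 had a UMI in at least 20% of spots, a mean of at least 30 CPM and no near absence from well A. A member also had an end-to-middle ratio on the rim above 0 in 4 wells with a mean of at least 0.7, a left-to-right ratio within 0.7 of 0, and a mean interior-to-rim ratio below 1. These ratios describe the choice and are not tested here. The member just inside the threshold, DJKW.20014, had a mean ratio of 0.73, and the feature just outside it, DJKW.742, had 0.68. Well A had a large part in the choice: without it the same conditions gave 23 genes, of which 14 are among the 25.

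The 4 wells held 1216 spots and 11838407 UMIs, of which well A gave the fewest (1499569) and well C the most (4395756). Each well held 12 sections, which makes 48, with 412 rim spots at the ends, 417 rim spots in the middle and 334 interior spots. Another 53 spots lay off the sections. The sections of wells A and B were small (medians of 6.5 and 7 rows) beside those of wells C and D (10 and 11 rows). Of the 969 spot barcodes on tissue, 211 occur in more than 1 well, since a barcode marks a position on the array and not a cell. The median rim spot held between 7637.5 UMIs (well D) and 9520.0 (well B) at the ends and between 6225 (well D) and 10369 (well B) in the middle. End spots also had more open sides, 2.53 to 2.96 of 6 on average by well against 2.08 to 2.18 in the middle.

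Together the 25 genes made up 0.83%, 2.01%, 1.62% and 1.69% of the end-rim UMIs of wells A to D. In the middle rim they made up 0.332%, 0.583%, 0.442% and 0.397%, and in the interior 0.140%, 0.321%, 0.389% and 0.319% in the same order. The end rim was the highest of the 3 zones in each well. That it exceeded the middle rim follows from how the genes were chosen, while on the interior the choice set only a loose limit. Without DJKW.11220, which has the most UMIs, the mean share of the other genes was 0.851% at the end rim and 0.280% in the middle rim. The end rim held 32.6% of all UMIs but a median of 64.7% of a member's UMIs. The range over members was wide, up to 83.1% and down to 43.2% for DJKW.896 and 32.5% for DJKW.28268, which is no more than the share of all UMIs. By section, the members' summed share was higher at the ends than in the middle of the rim in 47 of 48 sections, the exception lying in well B. In 42 of the 48, both the low-row end and the high-row end exceeded the middle. These counts use the contrast that chose the genes and only describe it. For single members the ends were higher in 47 sections at most and in 26 of the 40 with a UMI at least (DJKW.896).

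DJKW.13474 had the highest end-to-middle ratio. Its end-rim level was 67.0, 312, 260.0 and 173 CPM in wells A to D, against 6.79, 43.3, 20.8 and 11.3 CPM in the middle rim. The lowest end value was above the highest middle value, and the mean log2 ratio was 3.04 ± 0.43 (SD, n = 4). DJKW.12525 came second, with 294, 1987, 1309 and 898 CPM in wells A to D at the ends. In the middle rim it had 102, 277, 184 and 74.7 CPM, which also lie below all its end values, and the mean log2 ratio was 2.65 ± 0.84 (SD, n = 4). The gene with the most UMIs among the members, DJKW.11220, had 1307, 10651, 7512 and 7925 CPM in wells A to D. Its middle-rim levels were 453, 3254, 1633 and 992 CPM, so that the end level of well A fell below the middle level of wells B and C. Within each well its ends were higher, with log2 ratios of 1.52, 1.71, 2.20 and 2.99. DJKW.20014, at the threshold, had 85.95, 55.9, 54.9 and 67.7 CPM at the ends and 33.9, 31.9, 35.2 and 50.1 in the middle of the same wells, so its ends were also above the middle everywhere, by less. Across all members the mean ratio ran from 0.73 to 3.04 with a median of 1.43, beside -0.05 for the 4040 features considered. For 13 of the 25 genes the end values of the 4 wells did not overlap the middle values. Of the 4040 features this held for 38 (0.941%), and 1.19% met the threshold on the end ratio itself. Both shares come from the contrast that chose the genes and support nothing.

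**Figure D1:**
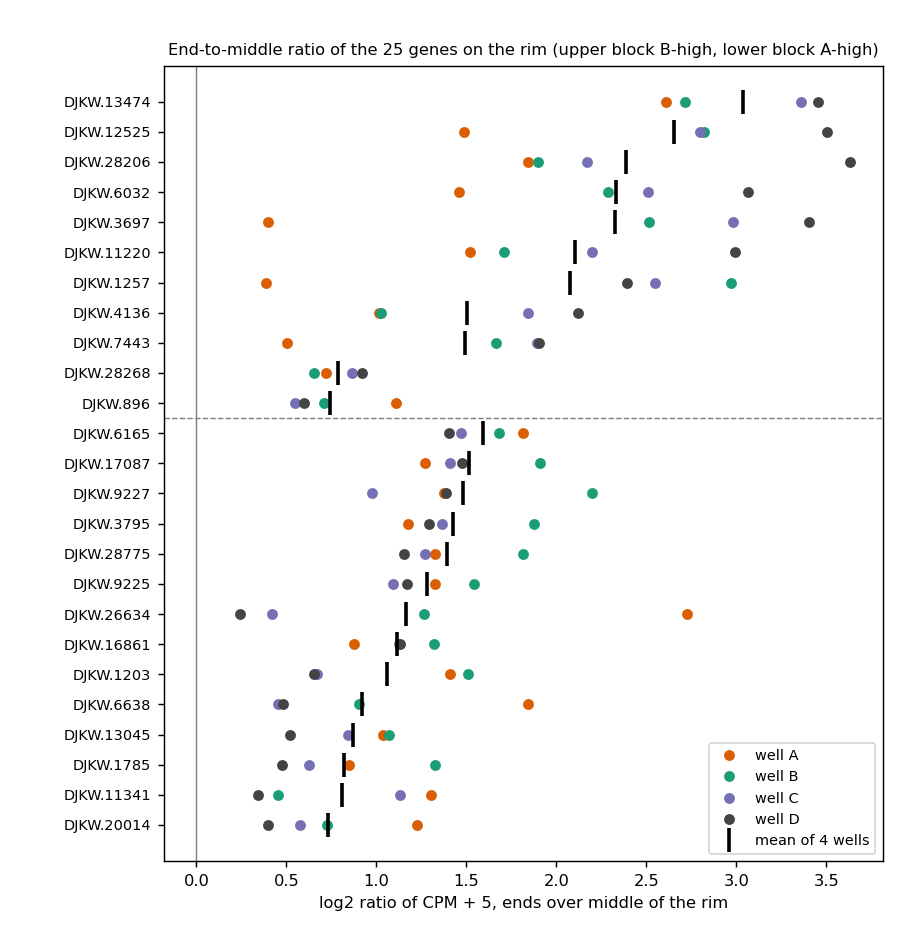
Log2 ratio of CPM + 5 at the ends over the middle of the rim (x axis) for each of the 25 genes (y axis), 1 point per well and a bar at the mean. The upper block holds the 11 B-high genes, whose means reach 3.04, and the lower block the 14 A-high genes, whose means stay below 1.6.

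Although all 25 genes share the ends, they fell into 2 sets by their level in the wells, a division made after the values were seen and used here only to describe. In 14 genes the level over all spots was higher in well A than in well B, and these are called A-high. They are DJKW.6165, DJKW.17087, DJKW.9227, DJKW.3795, DJKW.28775, DJKW.9225, DJKW.26634, DJKW.16861, DJKW.1203, DJKW.6638, DJKW.13045, DJKW.1785, DJKW.11341 and DJKW.20014. The other 11 genes had a higher level in well B and are called B-high. They are DJKW.13474, DJKW.12525, DJKW.28206, DJKW.6032, DJKW.3697, DJKW.11220, DJKW.1257, DJKW.4136, DJKW.7443, DJKW.28268 and DJKW.896.

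The summed level of the A-high genes over all spots was 3506, 1599, 1706 and 2207 CPM in wells A to D, and 13 of the 14 were highest in well A. The B-high genes summed to 1802, 8764, 5957 and 5230.3 CPM in wells A to D, and 10 of the 11 were lowest in well A. Both counts follow in part from the division. It was narrow for DJKW.16861, with 224 CPM in well A and 193 in well B. DJKW.1785 and DJKW.28268 were highest in well D, and DJKW.4136 was lowest there. DJKW.28775, the A-high gene with the most UMIs, had 798, 442, 546 and 652 CPM in wells A to D. DJKW.11220, B-high, had 826, 5465, 3449 and 3170.0 CPM in the same order. With 1 library a well and 1 group, differences between wells have no replicate check and were not tested. The sections of wells A and B had medians of 6.5 and 7 rows and of 3.25 and 4 spots in width. Their median interior spot held 8675 and 16040 UMIs. The part of section size or depth in the levels was not tested.

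The end-to-middle ratio differed in size between the sets. The mean ratios of the B-high genes had a median of 2.10 and reached 3.04, while those of the A-high genes had a median of 1.14 and a highest value of 1.59. By well, the median ratio of the B-high genes was 1.11, 1.90, 2.20 and 2.99 from A to D, and that of the A-high genes 1.31, 1.42, 1.03 and 0.89. Some means rest on few wells: DJKW.26634 had ratios of 2.73, 1.26, 0.42 and 0.24, and DJKW.3697 had 0.40 in well A and 2.51 to 3.40 in the others. Rim spots were also binned by the size of their relative row position. Averaged over wells, 24 of the 25 genes were highest in the outermost bin (over 0.75), and DJKW.896 in the bin from 0.5 to 0.75. This count follows in part from the contrast that chose the genes. The average hides differences between wells, as in DJKW.11220 in well B, with 6522 CPM in the outermost bin and 14003 in the bin from 0.5 to 0.75. The A-high genes were the more depleted inside: their mean interior-to-rim log2 ratio had a median of -2.41 (range -3.20 to -1.26), against -1.72 for the B-high genes (range -2.57 to 0.34) and -0.30 for all 4040 features. The exception at the upper end was DJKW.28268, the only member above 0. Its interior level was 85.6, 277, 620 and 800 CPM in wells A to D, below the rim in well A and above it in the other wells. The other 24 genes were lower inside than on the rim in 4 of 4 wells.

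**Figure D2:**
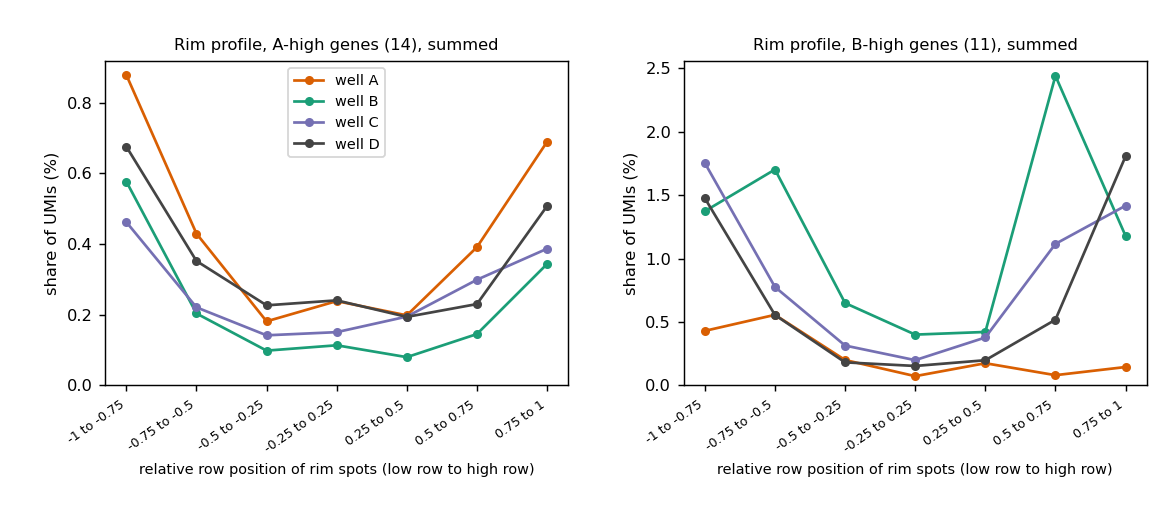
Summed share of UMIs in percent (y axis) of the 14 A-high genes (left) and the 11 B-high genes (right) in rim spots, binned by relative row position (x axis), 1 line per well. Both sets are higher towards both ends than in the centre in wells B, C and D, while the B-high genes of well A are low at the high-row end.

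Across spots of the ends, genes correlated more within the sets than between them. Pearson correlations were computed between genes over 407 end-rim spots of at least 1000 UMIs, on log2 values centred within each well. They are given as a description, since the spots share libraries and sections. Pairs of A-high genes had a median r of 0.29 (91 pairs) and pairs of B-high genes 0.38 (55 pairs), while pairs of 1 gene from each set had a median of 0.00 (154 pairs) and none above 0.28. By the median r, 13 of the 14 A-high genes and 11 of the 11 B-high genes were closer to their own set than to the other. The exception was DJKW.16861, with a median r of 0.07 to the A-high genes and 0.19 to the B-high genes. Low counts keep r near 0, so low values within a set are not read, and the same limit holds for pairs between the sets.

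Within the B-high set, 7 genes, called its core, had pairwise r from 0.49 to 0.77 (DJKW.13474, DJKW.12525, DJKW.6032, DJKW.3697, DJKW.1257, DJKW.4136 and DJKW.7443). DJKW.11220 and DJKW.28206 followed each other closely (r = 0.86) and the core less closely (0.27 to 0.44). This pair also stood apart across the width of the end rim, with more RNA on the right (higher array columns) in 4 of 4 wells. The log2 ratio of left over right was -0.91 ± 0.52 (SD, n = 4) for DJKW.28206 and -0.86 ± 0.64 for DJKW.11220, against a median of 0.10 over the 25 genes. In the middle rim these ratios were -1.14 ± 0.70 and -1.11 ± 0.66, beside a median of -0.49. There the lean was not particular to the pair. Of the 25 genes, 7 leaned right in 4 of 4 wells, the pair among them, and 2 leaned left. The A-high gene DJKW.17087 had -1.69 ± 1.18. The core of the A-high set is DJKW.6165, DJKW.17087, DJKW.9227, DJKW.3795, DJKW.28775, DJKW.9225 and DJKW.1785. These 7 genes had pairwise r from 0.49 to 0.80, the highest between DJKW.9225 and DJKW.28775. Between these 7 and the B-high core, r lay from -0.16 to 0.10. Both cores were marked out after the correlations were seen, so these ranges follow in part from that choice. Another pair of the A-high core, DJKW.9225 and DJKW.9227, has nearby identifiers and an r of 0.68. The sources used here do not say whether the 2 models are neighbours or copies that could share reads.

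**Figure D3:**
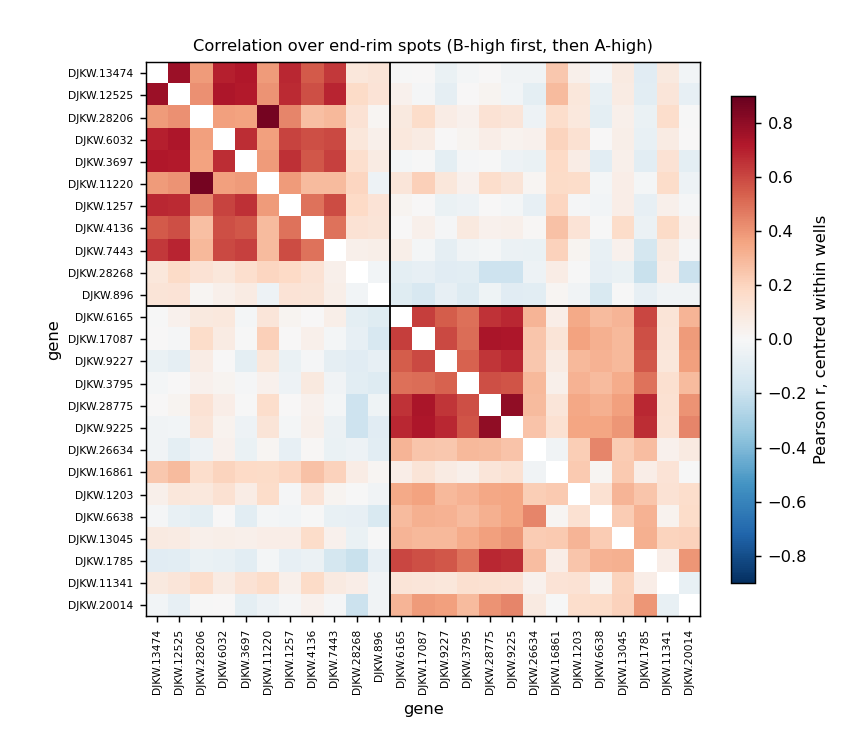
Pearson r between pairs of the 25 genes over end-rim spots (both axes list the genes, B-high first), with the diagonal left blank. The 2 blocks on the diagonal are mostly positive, with r up to 0.86, and the blocks between the sets lie between -0.20 and 0.28.

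Over the 4 wells together, the B-high genes were gathered in few spots. Of the members with at least 1000 UMIs on the end rim, the 42 spots (of 412) with the highest counts of a gene held 49.6% to 71.1% of the end-rim UMIs of 7 B-high genes and 37.5% to 43.3% of those of 5 A-high genes. The 42 deepest spots held 22.1% of all end-rim UMIs. Spots of all wells were ranked together, so the low B-high level of well A, which the division used, enters these shares. Well A gave 1900 end-rim UMIs of the B-high genes, against 13189 to 16473 in the other wells. For the A-high genes the wells gave 2272 to 5193. DJKW.11220 reached 1692 UMIs in 1 spot. Between the 12 sections of a well, the A-high genes' summed share of the end-rim UMIs ran from 0.269% to 0.703% in well A, from 0.0510% to 0.414% in well B, from 0.216% to 0.542% in well C and from 0.210% to 0.690% in well D. The B-high genes ran from 0.0518% to 1.5%, 0.131% to 3.73%, 0.537% to 2.22% and 0.565% to 2.50% in the same order. The 4 sections of well A with the most B-high UMIs held 69.5% of them but 26.8% of all end-rim UMIs. That gap was smaller in the other wells, with 69.7% against 49.4% in well B, 47.7% against 38.8% in well C and 56.8% against 39.9% in well D. As a description of the contrast that chose them, the A-high share was higher at the ends than in the middle in 48 of 48 sections, and the B-high share in 44.

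**Figure D4:**
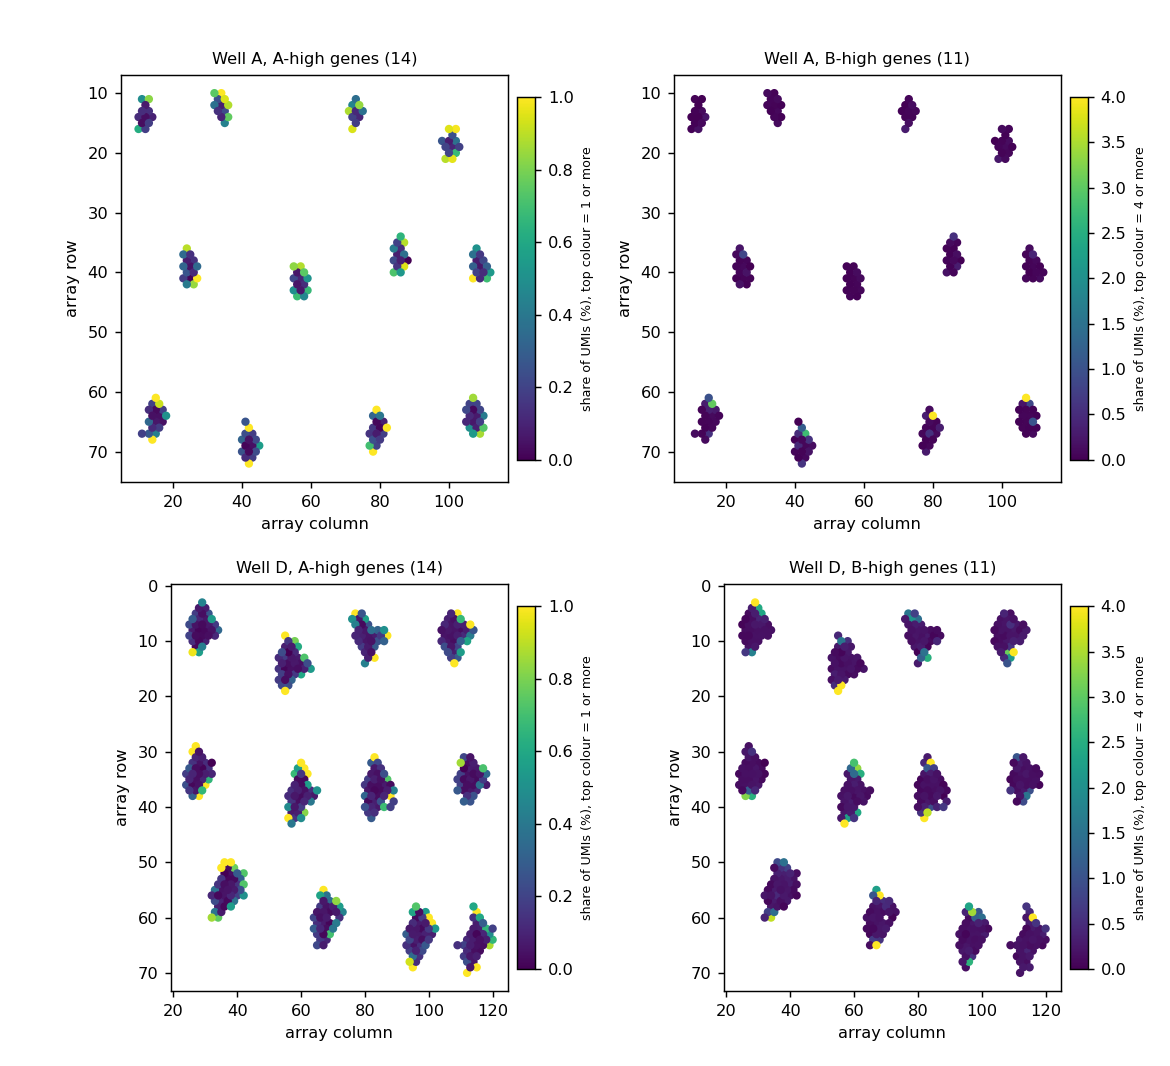
Positions of the section spots of wells A and D on the array (column on the x axis, row on the y axis, low rows at the top), coloured by the share of UMIs in percent from the 14 A-high genes (left) and the 11 B-high genes (right). A-high genes mark both ends of most sections of both wells, while B-high genes are high in few spots, in well A mostly at the low-row end of 4 sections.

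The following comparisons use contrasts that the choice of genes did not. Counts were summed per well and zone and tested across all features with edgeR's quasi-likelihood test, the well as a block, with Benjamini-Hochberg adjustment over all features tested. Levels are CPM scaled with TMM factors, and the wells are the replicates. The p-values rest on the spread between these wells, which may be technical, and in part on other features. With few wells, edgeR moves the spread of each gene towards a trend over all features. This weighs most in the interior contrast, where only wells C and D entered, so its p-values say little of each gene's own spread.

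The first question was whether the genes favoured 1 of the 2 ends of the rim. None of the 25 genes passed in either direction (edgeR adjusted p under 0.05), beside 5 of 5439 features higher at the low-row end (0.0919%) and 2 higher at the high-row end (0.0368%). At an unadjusted p under 0.05, 10 members were higher at the low-row end, beside 4.5% of all features, and 0 at the high-row end, beside 2.92%. The fold pointed to the low-row end in 23 of the 25 genes, with a median log2 of 0.30 beside -0.002 for all features. By well, 23, 17, 16 and 17 of the 25 were higher at that end in wells A to D. Of the 14 A-high genes it was 13, 13, 8 and 11. DESeq2 called 0 members and edgeR without a filter on low counts called 5. The member with the smallest adjusted p was DJKW.4136, with 438, 737, 845 and 491 CPM in wells A to D at the low-row end and 323, 675, 573 and 357 at the high-row end (log2 fold change 0.40 ± 0.09, SE, edgeR adjusted p = 0.219). In the other direction it was DJKW.16861 (log2 fold change -0.07 ± 0.10, SE, edgeR adjusted p = 0.924).

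For the B-high genes, well A stood apart in this contrast. Its B-high genes made up 0.511% of the UMIs of the low-row end and 0.109% of those of the high-row end. In wells B, C and D the shares were 1.56%, 1.27% and 1.08% at the low-row end and 1.85%, 1.28% and 1.35% at the high-row end. DJKW.11220 had 2723 CPM at the low-row end and 213 at the high-row end of well A, while its ends differed by less than 1.5-fold in the other wells. The A-high genes of well A made up 0.588% and 0.527% of the UMIs of its 2 ends. The median rim spot of well A held 6718 UMIs at the low-row end and 9050.0 at the high-row end. Without well A, again 0 members passed in either direction.

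Next, interior spots at the ends were set against interior spots of the middle. In the 2 wells that could enter, C and D, 7 of the 11 B-high genes rose at the ends inside the sections, by 2.24-fold to 4.87-fold. No member was called lower. The calls depended on the border and the method, as given below. The background was 27 of 6033 features higher at the ends (0.448%) and 16 higher in the middle (0.265%). Only wells C and D had enough interior end spots to enter, 16 and 21, and 21 of the 25 genes passed the filter on low counts. DJKW.28206 had the largest fold among the genes that passed, with 352 CPM in well C and 503 in well D at the ends and 128 and 57.1 in the middle. The 2 wells together gave a log2 fold change of 2.28 ± 0.32 (SE, edgeR adjusted p = 0.00505). DJKW.3697 followed, with 116 and 57.6 CPM at the ends and 35.3 and 12.3 in the middle (log2 fold change 1.88 ± 0.33, SE, edgeR adjusted p = 0.0254). Both genes were higher at the ends in 2 of 2 wells. The other 5 were DJKW.12525, DJKW.6032, DJKW.11220, DJKW.1257 and DJKW.7443.

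All 11 B-high genes were tested here and had a positive fold, with a median log2 fold change of 1.66. The 10 A-high genes tested had a median of -0.19, with 6 of them below 0, the median of all features being -0.01, and none passed. The difference between the sets was not tested, since they were chosen after the values were seen. The summed share of the B-high genes in the interior of well C was 0.669% at the ends and 0.294% in the middle, and in well D 0.603% and 0.196%. In wells A and B, with 4 interior end spots each, it was 0.034% and 0.448% at the ends and 0.0813% and 0.270% in the middle, so well A ran the other way. With all 4 wells entered regardless of spots, 0 members passed of 11 that could be tested. DESeq2 called 2, and a border of 0.4 or 0.6 in place of 0.5 left 1 and 0.

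Within the end rim, the outermost part (relative row position over 0.75 in size, 217 spots) was set against the inner part (195 spots). Here 9 of the 25 genes rose towards the tip, by 1.66-fold to 2.87-fold, and all 9 were A-high. The background was 37 of 5248 features higher in the outermost part (0.705%) and 13 higher in the inner part (0.248%), and no member was among the latter. DJKW.3795 had 228, 154, 169 and 258 CPM in wells A to D in the outermost part. In the inner part it had 78.7, 68.8, 61.9 and 68.6 CPM, all below the outermost values, a log2 fold change of 1.52 ± 0.16 (SE, edgeR adjusted p = 0.00111). DJKW.6638 had 200.4, 89.9, 60.7 and 98.3 CPM in the outermost part and 62.0, 24.6, 38.9 and 30.2 in the inner part (log2 fold change 1.44 ± 0.22, SE, edgeR adjusted p = 0.0136). The groups of wells overlapped for this gene, although each well had more RNA in the outermost part, and without well D it missed the threshold (edgeR adjusted p = 0.0703).

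The 14 A-high genes had a median log2 fold change of 1.08 towards the tip and were all positive, beside -0.01 for all features. The 11 B-high genes had a median of 0.58 and none passed. They divided by well: in each of wells A and B, 3 of the 11 were higher in the outermost part, and in each of wells C and D it was 10. DJKW.12525 had 107 CPM in the outermost and 408 in the inner part in well A, and 1508 and 373 in well D. Without well A 14 members passed. With library totals in place of TMM, 86.2% of all calls were higher in the outermost part, against 74%. Outermost spots had more open sides, 3.18 on average against 2.12 in the inner part, and the part of this in the result was not tested here.

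The next contrast moved to the middle of the rim, where the outer part (relative row position from 0.25 to 0.5 in size, 223 spots) was set against the inner part (194 spots). Only 2 of the 25 genes passed, both of them B-high and higher in the outer part, while 32 of 5644 features were higher there (0.567%) and 3 in the inner part (0.0532%). DJKW.28206 had 52.8, 450, 275 and 117 CPM in wells A to D in the outer part and 30.2, 277, 59.9 and 65.7 in the inner part (log2 fold change 1.16 ± 0.22, SE, edgeR adjusted p = 0.0244). DJKW.11220 had 808, 3894, 2283 and 1242 CPM in the outer part and 287, 2536, 1079 and 945 in the inner part (log2 fold change 0.86 ± 0.14, SE, edgeR adjusted p = 0.00654). The levels of these wells overlapped between the parts for both genes, but in 4 of 4 wells the outer part was higher. All 11 B-high genes had a positive fold (median log2 0.44), against 2 of the 14 A-high genes (median -0.17). Without well C none of the members passed (edgeR adjusted p = 0.154 for DJKW.28206 and 0.157 for DJKW.11220).

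Because end spots have more open sides, rim spots of the middle with at least 3 open sides (143 spots) were set against those with 1 or 2 (274 spots). Exposure separated the genes in both directions. Of 23 genes tested, 8 were higher in exposed spots, all A-high, where 6.58% of 4744 features were called, and 4 were higher in less exposed spots, where 4.32% were. DJKW.26634 had 26.4, 42.5, 86.5 and 63.9 CPM in wells A to D in exposed spots and 7.99, 11.5, 19.1 and 51.9 in less exposed ones (log2 fold change 1.32 ± 0.35, SE, edgeR adjusted p = 0.0282). DJKW.17087 had 454, 118, 235 and 387 CPM in exposed and 181, 65.4, 90.8 and 140 in less exposed spots (log2 fold change 1.30 ± 0.14, SE, edgeR adjusted p = 8.36e-05). Both were higher in exposed spots in 4 of 4 wells. DJKW.26634 missed the threshold without well B (edgeR adjusted p = 0.0735), without well C (log2 fold change 0.88, adjusted p = 0.277) and with DESeq2 (adjusted p = 0.0619).

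In the other direction, DJKW.12525 had 15.8, 151, 166 and 67.5 CPM in exposed and 152, 345, 217 and 96.7 in less exposed spots of wells A to D (log2 fold change -0.96 ± 0.26, SE, edgeR adjusted p = 0.0363). DJKW.28206 had 10.5, 246, 125 and 81.7 CPM in exposed and 53.3, 447, 210.2 and 106 in less exposed spots (log2 fold change -0.79 ± 0.18, SE, edgeR adjusted p = 0.0150). The other 2 were DJKW.11220, B-high, and DJKW.16861, the A-high gene whose counts followed its own set least. None of the 9 B-high genes tested had a positive fold, and 13 of the 14 A-high genes did. Of the 4 calls in less exposed spots, the number fell to 0 without well B, 1 without well C, 0 with DESeq2 and 1 with library totals. With library totals, 74.0% of all calls were higher in exposed spots, against 60.3%. Exposed spots had fewer UMIs, with a median of 5612 to 7242 by well against 6894 to 13770.0, and the part of depth in the result was not tested.

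Of the 9 genes that rose towards the tip of the end rim, 7 (77.8%) were among the 8 higher in exposed spots of the middle rim (87.5% of these), and the 2 contrasts share no spot. Over all features, members included, 23 of the 37 higher in the outermost part (62.2%) were among the 312 higher in exposed spots. Without the members it was 16 of 28. Whether the share among the members differs from this was not tested. Of the 7 genes that rose at the ends inside the sections, 3 (42.9%) were among the 4 higher in less exposed spots. Over all features it was 12 of 27 (44.4%), and 9 of 20 without the members. None of the 7 was among the 9 that rose towards the tip, and over all features the 2 lists also shared 0.

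**Figure D5:**
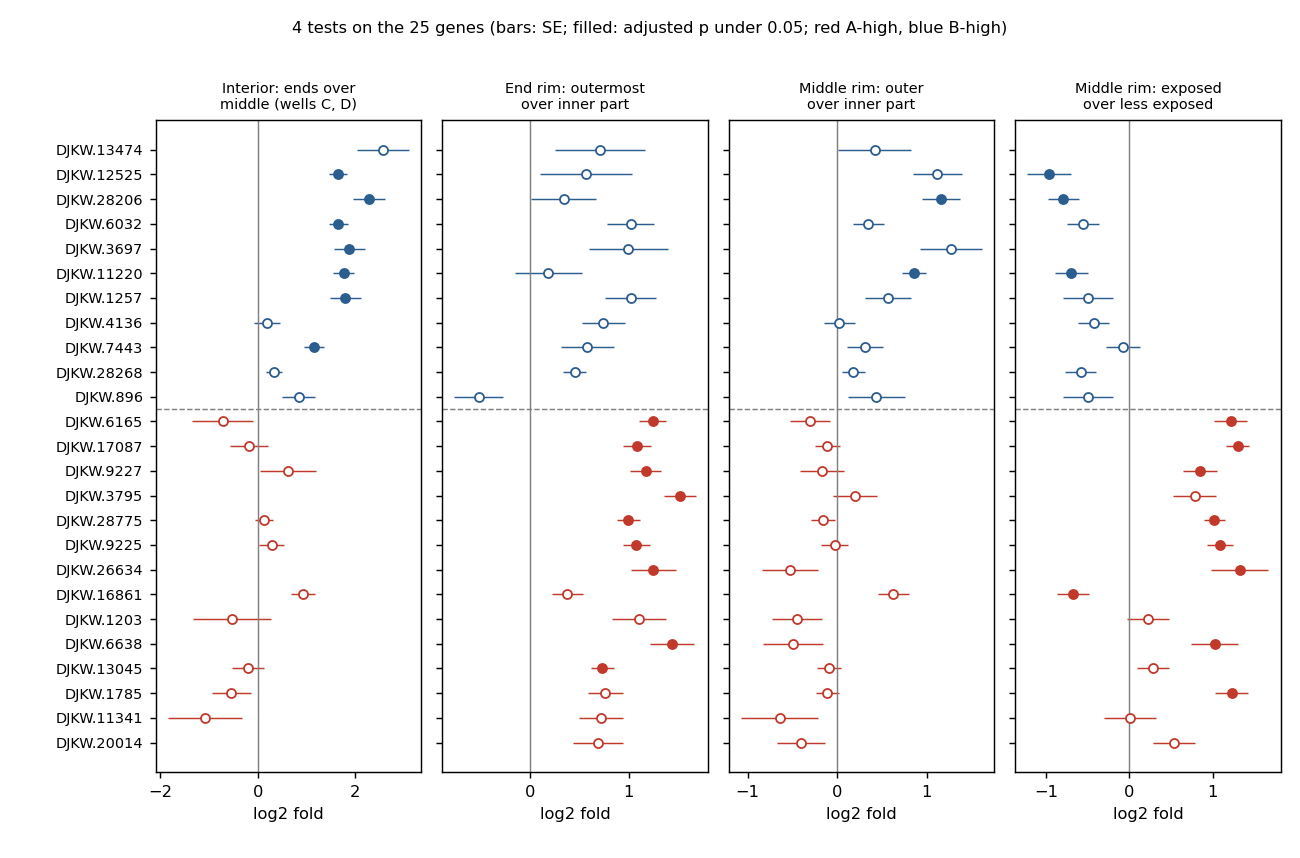
Log2 fold change with its SE (x axes) for each gene (y axis) in 4 tests, filled where the edgeR adjusted p was under 0.05, with B-high genes in blue above the line and A-high genes in red below it. The filled points of the interior test (7) and of the outer middle rim (2) are blue, those higher in the outermost part of the ends (9) and in exposed spots (8) are red, and the 4 below 0 for exposure are 3 blue and 1 red.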

How the data were processed

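The authors deposited UMI counts, not normalized, made with Space Ranger 2.0.1 per the file headers. Seurat appears in the submitters' processing notes with no step, and the sources used here name no genome build or annotation. The deposited positions give each spot's array row and column and whether it lies on tissue, and all spots with counts do. CPM, log2 ratios and sums were computed from the counts as described with the results. The tests ran in R 4.3.3 with edgeR 4.0.16, as quasi-likelihood F-tests with zone and well as terms after filterByExpr and TMM scaling, and the pairing of zones by well is by design. A well entered with at least 5 spots and 20000 UMIs in both zones. DESeq2 1.42.0 was an alternative. The members, sets and contrasts were chosen with earlier results of these data known. Named genes are the 2 with the highest end ratio, the 2 with the most CPM, the 2 at the threshold and, per test and direction, the 2 with the largest fold among those called with 1 direction in every well, or those with the smallest adjusted p where none passed. Further identifiers were chosen after their values were seen. On simulated data for the 2 ends of the rim (5454 features), the test recovered 61% of 2-fold and 96% of 4-fold changes, with 7 false calls. For the interior contrast these shares were 12% and 76% (5974 features, 3 false calls). The simulation gave all genes the same dispersion and no difference between wells in the effect of zone, and changed only genes above a minimum count. These shares therefore do not describe genes that vary more, such as DJKW.11220 between the 2 ends of the rim (SE 0.43).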

Additional observations from a re-analysis of the deposited data

Results flagged for a closer look

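Of 50 sets of 4 well values checked (the end-to-middle ratio and the ratio of low-row over high-row end of each gene), 6 held a well far from the other 3. The end-to-middle ratio was used to choose the genes, and some genes follow each other across spots. The count of 6 is therefore a description and is not set against chance. In 4 of them well A was the well apart in the ratio of the 2 ends. Its log2 ratio of low-row over high-row end was 3.72 for DJKW.28206 (other wells -0.25 to -0.01), 3.65 for DJKW.11220 (-0.49 to -0.11), 2.98 for DJKW.12525 (-0.36 to 0.20) and 0.58 for DJKW.896 (-0.23 to -0.10). For DJKW.1203 it was well B, with 0.73 against 0.04 to 0.14. The end-to-middle ratio of DJKW.7443 was 0.50 in well A and 1.67 to 1.90 in the others.

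The 53 spots off the sections, which entered the levels over all spots but no comparison of zones, also held RNA of the members. It made up 0.825% of their UMIs (722 of 87551, exact binomial 95% interval 0.766% to 0.887%, counting error only), where a count of 0 would allow up to 0.00343%. By well the share off the sections was 0.315%, 1.02%, 0.490% and 0.574% in wells A to D, below that over all spots of the same well each time (0.531%, 1.04%, 0.766% and 0.744%), and well B gave 53249 of the 87551 UMIs.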

How the results depend on the processing

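The number of members moved between 21 and 32 under other pseudocounts, borders, section minimums, axes or wells. Without well A and the condition on it, the number was 23, of which 14 are among the 25. Between the 2 ends of the rim, 5 members were higher at the low-row end without a filter on low counts, against 0. Inside the sections the 7 genes higher at the ends became 2 with DESeq2, 1 with a border of 0.4 (15 genes tested), and 0 with a border of 0.6, without a minimum for wells (11 tested) and with no replicate block. Leaving out well C or D there leaves 1 well and no test. For the outermost part of the ends, 9 became 18 without a filter and 1 with no replicate block, and 7 to 14 with 1 well left out. For the outer middle rim, 2 became 4 without a filter, 1 with library totals, 1 with DESeq2, 0 with no replicate block and 0 to 3 with 1 well left out. For exposed spots, 8 became 5 with DESeq2 and 0 with no replicate block. For less exposed spots, 4 became 7 without a filter, 1 with library totals, 0 with DESeq2, 0 with no replicate block and 0 to 3 with 1 well left out. The cause was not tested. Counts over all features, in the order of the tests and directions above, moved from 5 and 2 to between 0 and 56 and 0 and 15, from 27 and 16 to 2 to 37 and 0 to 29, from 37 and 13 to 7 to 99 and 0 to 87, from 32 and 3 to 0 to 91 and 0 to 18, and from 312 and 205 to 8 to 495 and 0 to 487. For the named genes, 132 values were recomputed: 100 kept their side of the threshold, 31 missed it, 1 newly passed and 0 changed direction with a call. The 100 include values of DJKW.4136 and DJKW.16861 between the 2 ends of the rim, which had no call to lose. All 31 came from genes that had passed. Wells A and B, with 4 interior end spots each, did not enter the interior contrast.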
